A study of Mus musculus with 12 samples.

Results

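The 3 miRNAs described here are mmu-miR-365, mmu-miR-193 and mmu-miR-193b (miR-365, miR-193 and miR-193b below), the products of a pair of related gene clusters in the mouse. They were taken by name from the 650 entries of a one-colour (Cy3) Agilent miRNA array, 611 of them mouse miRNAs, leaving out star forms. miR-365 was selected on its lower signal in the dark than in the light, so that difference is given below as a description and not tested. miR-193 and miR-193b came with it as its genomic neighbours.

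The arrays carried total RNA of adult mouse liver. The mice were kept under alternating 12-h light and 12-h dark phases, with food and water freely available. Livers were collected every 4 h from ZT18 to ZT62, where zeitgeber time (ZT) counts hours from a lights-on, and the RNA of 2 livers was pooled for each of the 12 arrays. The 6 dark arrays were ZT18, ZT22, ZT38, ZT42, ZT46 and ZT62, and the 6 light arrays were ZT26, ZT30, ZT34, ZT50, ZT54 and ZT58. Each of 6 clock times (2, 6, 10, 14, 18 and 22 h, counted from lights on) was sampled on 2 arrays spaced by 24 h. The later of these belongs to cycle 2 and the earlier to cycle 1. Strain and sex are not named in the sources used here. P-values for differences between groups rest on the spread between such pools. Where a group holds several clock times, that spread also includes differences between clock times. The permutation p-values of the correlations do not measure this spread. Pools of 2 livers hide the spread between mice, and in whole liver RNA fewer cells of a type and less RNA per cell cannot be told apart.

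miRNAs are short RNAs cut from hairpin transcripts, and they repress messenger RNAs chiefly by pairing of their seed, bases 2 to 8, with the target. The mouse genome holds one cluster with Mir193b and Mir365-1 and another with Mir193a and Mir365-2. Both clusters yield the same mature miR-365, while their miR-193 products differ. The Mir193b and Mir365-1 cluster is known from brown fat, where it was reported to promote adipocyte differentiation in mouse. In human cancer cells miR-193a was reported to repress MCL1, a survival factor, and miR-193b to repress PLAU, the urokinase, and in human lung cells miR-365 was reported to repress the transcription factor NKX2-1.

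The mature sequences show which members can act on shared targets, and how alike they are. They are from RefSeq (GRCm38.p6, all on the plus strand), written 5′ to 3′ with the seed in capitals.
miR-365-3p: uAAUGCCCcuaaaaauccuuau
miR-193a-3p: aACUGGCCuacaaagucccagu
miR-193b-3p: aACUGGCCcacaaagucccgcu
The array's miR-193 was taken as miR-193a-3p, since RefSeq lists mmu-mir-193 as a synonym of Mir193a. That gives the locus, while the arm was inferred from the absence of a star in the name, and likewise for miR-365 and miR-193b. Probe sequences were not used here. miR-193a and miR-193b shared the seed ACUGGCC, which no other of the 1679 mature mouse miRNAs in the RefSeq table carried. They were identical at 19 of 22 bases and differed, counted from the 5′ end of miR-193a, by U9C, A20G and G21C. The seed of miR-365, AAUGCCC, was carried by miR-365 alone, so the family holds 2 seed groups. miR-365 had 7 G or C bases among its 22, against 11 in miR-193a and 13 in miR-193b.

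The hairpins show why a probe for miR-365 cannot assign its signal to a locus: the mature arm, in capitals, has the same letters in both.
Mir365-1: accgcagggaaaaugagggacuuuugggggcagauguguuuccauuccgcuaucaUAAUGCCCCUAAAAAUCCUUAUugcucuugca
Mir365-2: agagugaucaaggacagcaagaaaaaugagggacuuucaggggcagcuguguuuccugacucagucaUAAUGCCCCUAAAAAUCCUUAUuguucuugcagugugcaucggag
Mir193b: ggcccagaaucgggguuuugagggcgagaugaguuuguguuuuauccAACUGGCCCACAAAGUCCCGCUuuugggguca
Mir193a: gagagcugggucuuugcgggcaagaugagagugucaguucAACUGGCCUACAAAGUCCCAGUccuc
Mir193b (chr16:13449523-13449601) was followed by Mir365-1 (chr16:13453840-13453926) after 4238 bases. Mir193a (chr11:79711969-79712034) was followed by Mir365-2 (chr11:79726400-79726511) after 14365 bases. A miR-365 signal can thus come from either cluster, whereas miR-193 and miR-193b each mark one.

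Of the 3 members, miR-365 and miR-193 were measured and miR-193b was not. The scanner software called miR-365 and miR-193 detected on 12 of 12 arrays, and all 120 spots of each of their 2 probes were well above background. miR-193b was detected on 0 of 12 arrays. Its brighter probe had 7 of 120 spots well above background and its dimmer probe 3 of 120. The brighter probe read 3.684 at the lowest, 5.015 at the median and 10.76 at the highest on dark arrays, against 3.046, 4.783 and 15.45 on light arrays (intensity units after scaling). All of these lie under 21.9 intensity units, the level taken as the floor, so miR-193b was not well above background on any array and has no fold change here. miR-193*, the other arm of Mir193a, was also detected on 0 of 12 arrays, and its sequence from the 5′ side of that hairpin reads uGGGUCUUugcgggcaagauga. Probes differ in how brightly they report a molecule, so the level of one member is not compared with that of another.

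The software detected 132 to 162 entries per array, and the 139 detected on at least 6 arrays were tested, miR-365 and miR-193 among them. The tissue label held: the hepatocyte miRNAs miR-122, miR-192, miR-194 and miR-148a were detected on all 12 arrays, while the 3 striated muscle and 2 neuronal markers were detected on none. Endothelial miR-126-3p and miR-126-5p, red cell miR-451 and miR-144, 3 of 5 leukocyte and 2 of 4 mesenchymal markers were detected on all 12. The remaining red cell marker, miR-486, was detected on 4 arrays. No spot was saturated. By the scan date in the file headers the arrays fell into 2 groups, taken here as 2 slides. ZT18 to ZT46 are called slide 1 and ZT50 to ZT62 slide 2. The slides were inferred from that date and are not named in the sample labels. The ZT38 array had the lowest scaling factor, 0.865, against up to 1.10 on the others.

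On their brighter probes and with the scaling used, miR-365 and miR-193 were among the steadiest of the tested entries over the 2 days. The SD of miR-365 over the 12 arrays was 0.052 log2 units, the 8th smallest of the 109 tested entries never at the floor, and that of miR-193 was 0.053, the 9th. The median SD of those entries was 0.095. From the lowest to the highest array miR-365 spanned 1.14-fold and miR-193 1.15-fold, and both had their lowest value at ZT38. The dimmer probes had larger SDs, 0.066 for miR-365 and 0.080 for miR-193. With scaling over all probes instead, the light arrays of miR-365 ran from 6.53 to 8.26 log2 units.

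**Figure D1:**
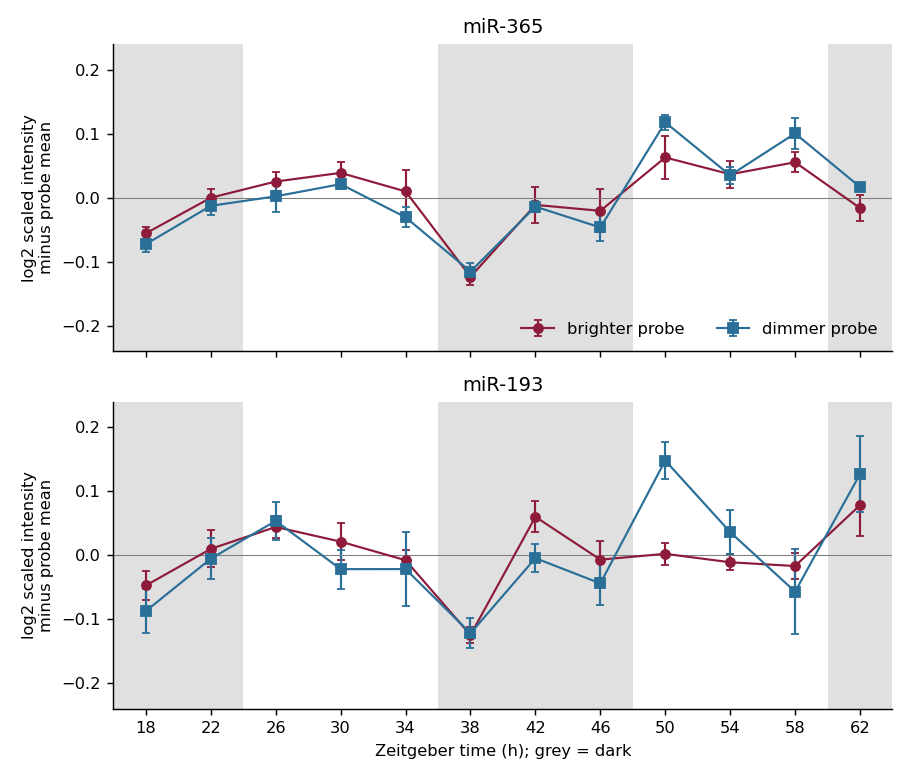
Level of each probe of miR-365 (top) and miR-193 (bottom) by zeitgeber time, as log2 scaled intensity minus the probe's mean over 12 arrays. Bars are the SE over the spots of the probe on that array, and grey marks the dark. Both members are lowest at ZT38, and the probes of a member correlate with r = 0.90 for miR-365 and 0.69 for miR-193.

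By clock time miR-365 averaged higher in the light than in the dark, which restates the difference it was chosen for. Its means were 7.70 ± 0.03 log2 units at 2 h, 7.70 ± 0.002 at 6 h and 7.69 ± 0.03 at 10 h, all in the light, then 7.59 ± 0.08 at 14 h, 7.63 ± 0.03 at 18 h and 7.65 ± 0.01 at 22 h, all in the dark (SD, n = 2 each). The means of the 3 light clock times ran only from 7.69 to 7.70 log2 units, and the low mean at 14 h rests on the ZT38 array. The 14-h values were 7.64 in cycle 2 (ZT62) and 7.54 in cycle 1 (ZT38), and the ZT62 value lies above the 18-h mean.

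On the brighter probe, miR-365 read 185.7 at the lowest, 199.7 at the median and 202.3 at the highest on the 6 dark arrays, against 203.7, 207.6 and 211.3 on the 6 light arrays (scaled intensity). Every dark array lay below every light array. On the log2 scale the means were 7.62 ± 0.05 in the dark and 7.70 ± 0.02 in the light (SD, n = 6 each), a dark over light fold of 0.949. miR-365 was the only one of the 139 tested entries whose dark and light arrays did not overlap (0.719%). It was chosen for this difference, so the count is a description. The gap between the highest dark and the lowest light array, 0.0098 log2 units, was smaller than the median SE of the probe over its spots, 0.018. All 6 dark arrays lay below the light mean in 18% of the 139 entries, miR-365 among them.

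The dimmer probe of miR-365 had the same direction with overlapping groups. It read 151.0 at the lowest, 160.1 at the median and 165.4 at the highest on dark arrays, against 160.1, 166.7 and 177.4 on light arrays. Its dark minus light difference was -0.082 log2 units, and 3 of 6 dark arrays lay below every light array. The probes correlated with r = 0.90 over the 12 arrays, a description, since they share RNA, labelling and scaling.

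miR-193, from the Mir193a and Mir365-2 cluster, showed a smaller difference. Its brighter probe read 388.2 at the lowest, 423.7 at the median and 446.8 at the highest on dark arrays, against 418.3, 422.4 and 436.4 on light arrays. The dark arrays lay on both sides of the light ones, with ZT38 lowest and ZT62 highest. The log2 means were 8.72 ± 0.07 in the dark and 8.73 ± 0.02 in the light (SD, n = 6 each), a fold of 0.993. Its dimmer probe had a difference of -0.046 and also overlapped. Its 2 probes correlated with r = 0.69 over the 12 arrays.

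Markers of the cell types in whole liver are given beside these differences, and their part in them was not tested. Of all 139 tested entries 93 averaged lower on dark than on light arrays. All 4 hepatocyte markers averaged lower on dark arrays (median -0.032 log2 units), and their summed scaled intensity was 35400 to 38900 on dark arrays and 35270 to 39020 on light arrays. The 3 tested leukocyte markers averaged lower there too (median -0.081). Their list of 5, of which miR-150 and miR-155 were at the floor on all arrays, summed to 421.2 to 501 on dark arrays and 433.2 to 523.7 on light arrays. Of the 2 endothelial markers 1 averaged lower on dark arrays (median -0.0053), and of the 2 tested red cell markers 0 did (median 0.0068). Both tested mesenchymal markers averaged higher on dark arrays (median 0.13), and the list of 4 summed to 184.5 to 255.2 on dark arrays and 183.9 to 210.3 on light arrays. The groups overlapped in each of these sums, in which a marker at the floor counts as 21.9, and no marker passed an adjusted p of 0.05 in limma.

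**Figure D2:**
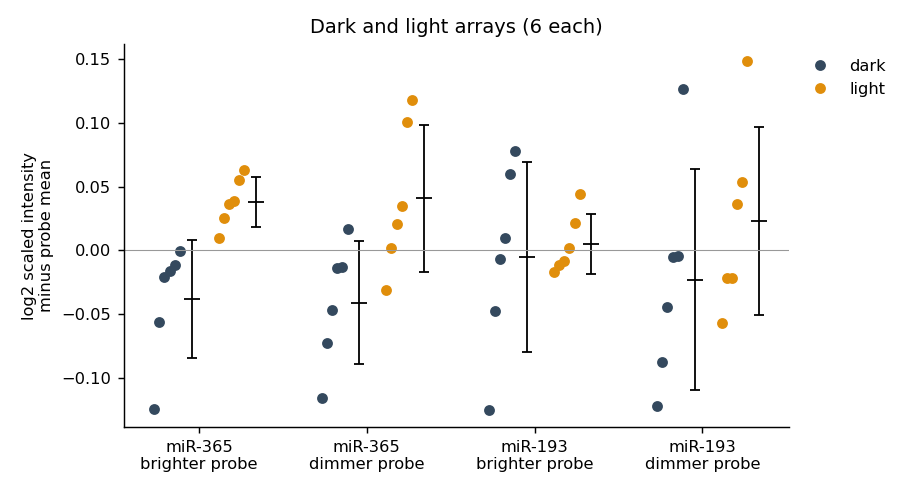
Dark (left in each pair) and light arrays for both probes of miR-365 and miR-193, as log2 scaled intensity minus the probe's mean, with 6 points per group and the mean ± SD beside them. The groups are separate for the brighter probe of miR-365, where the means are 7.62 and 7.70, and overlap for the other 3 probes.

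The separation of miR-365 depended on the scaling between arrays. Before scaling, the same probe read 181.4 to 220.6 on dark arrays and 197.7 to 211.0 on light arrays, so the dark arrays included both the lowest (ZT46 and ZT18) and the highest (ZT42, ZT38 and ZT22). The ZT38 array read 214.6 before scaling and 185.7 after it. Over 8 ways of scaling and summarising, the dark and light arrays of miR-365 were separate in 3 and overlapped in 5. Without the ZT38 array the difference was -0.059 for miR-365 and 0.014 for miR-193. Within slide 1 (5 dark and 3 light arrays) it was -0.067 for miR-365 and -0.041 for miR-193, and slide 2 holds 1 dark array only.

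The choice of scaling also moved the median of all 139 entries, which was -0.02 log2 units between dark and light with the scaling used, 0.38 with scaling over all probes and -0.36 with the normexp background correction. Relative to that median miR-365 lay at -0.053 as processed here, at -0.049 after quantile normalization, at -0.041 without scaling and at -0.024 after all-probe scaling, but at 0.12 with normexp. miR-193 lay above the median by 0.013, 0.041 and 0.025 as processed here, after all-probe scaling and without scaling, and by 0.29 with normexp. Relative to the median it lay at -0.0071 with quantile normalization, -0.0064 with the total gene signal, -0.0097 with the mean of all probes and -0.041 on slide 1 alone. Only 157 of the 1857 probes were detected on all arrays, and all-probe scaling uses the others as well.

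**Figure D3:**
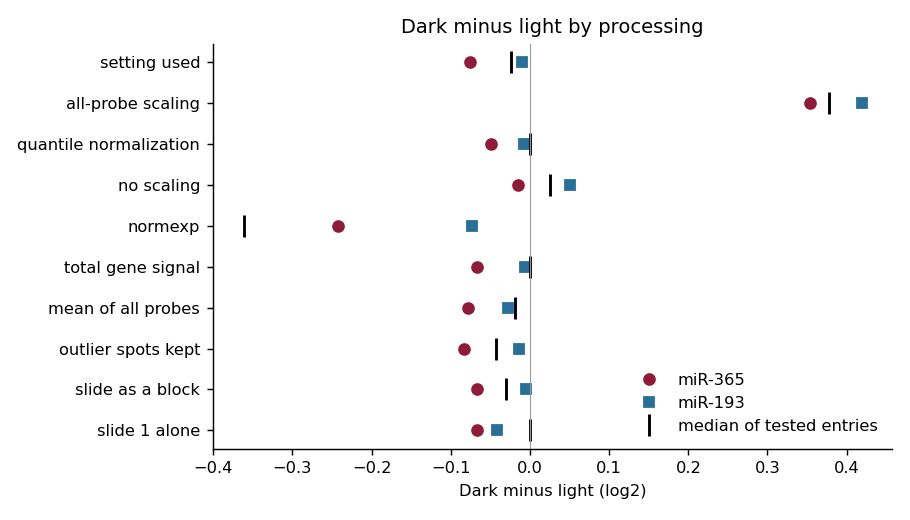
Dark minus light difference (log2) of miR-365 (circles) and miR-193 (squares), and the median of all tested entries (bars), under 10 ways of processing. miR-365 lies below the median under each except normexp, and its own difference is above 0 with all-probe scaling only (0.35).

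In the ratio of the members on the same array a single scaling factor per array cancels, though the effects of background correction and quantile normalization do not. The ratio was taken on the brighter probes, as log2 of miR-365 over miR-193 and as a deviation from its mean over the arrays. It was -0.033 ± 0.040 on dark arrays and 0.033 ± 0.034 on light arrays (SD, n = 6 each), a dark minus light difference of -0.066 log2 units. It was lowest at ZT62 (-0.094) and ZT42 (-0.071), both dark, and highest at ZT58 (0.072) and ZT50 (0.061), both light. The groups overlapped, with the light ZT26 array at -0.019 and the dark ZT38 array at 0.0012. Most of the difference lay in cycle 2, whose light arrays were all on slide 2. In cycle 1 the dark arrays read -0.0084 (ZT18), -0.01 (ZT22) and 0.0012 (ZT38). The light arrays of cycle 1 read -0.019 (ZT26), 0.018 (ZT30) and 0.018 (ZT34). At ZT38, where both members were lowest, their ratio was thus close to its mean. On the dimmer probes dark minus light was -0.082 for miR-365 and -0.046 for miR-193, so the members were closer there. The ZT50 array was the highest for both dimmer probes (7.47 and 6.92). The brighter-probe ratio holds the miR-365 values that picked the miRNA out, so it too is a description.

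A fitted 24-h rhythm had a peak-to-trough fold of 1.08 for miR-365, with its maximum 4.51 h after lights on, and of 1.03 for miR-193. The 24-h terms overlap with dark against light and are given without a test. The median over the 139 entries was 0.11 log2 units for this rhythm, the same as the value of miR-365 (0.11), and that of miR-193 was 0.036. Leaving out single arrays moved the value of miR-193 between 0.015 (without ZT38) and 0.078 (without ZT62), and that of miR-365 between 0.082 and 0.12.

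The remaining comparisons ask other questions than the size of the dark-light difference and were tested with limma over all 139 entries, with p-values adjusted by the Benjamini-Hochberg method. Cycle 2 was set against cycle 1 within clock times to ask whether levels repeated after 24 h. Slide 2 held arrays of cycle 2 only, so cycle was partly confounded with slide. For miR-365 the cycle 2 mean was 7.68 ± 0.04 log2 units, against 7.64 ± 0.06 for cycle 1 (SD, n = 6 each). Its fold was 1.02 (95% interval 0.989 to 1.06), with cycle 2 higher in 4 of 6 pairs. For miR-193 the cycle 2 mean was 8.74 ± 0.04, against 8.71 ± 0.06 for cycle 1 (SD, n = 6 each). Its fold was also 1.02 (95% interval 0.961 to 1.09), with cycle 2 higher in 2 of 6 pairs. On the dimmer probes the means were further apart. They were 7.39 ± 0.06 in cycle 2 and 7.32 ± 0.05 in cycle 1 for miR-365 (SD, n = 6 each). For miR-193 they were 6.81 ± 0.09 and 6.74 ± 0.06. On the brighter probes the largest pair difference of both members was at 14 h, 0.11 for miR-365 and 0.20 for miR-193. There cycle 2 is the ZT62 array and cycle 1 the ZT38 array. Neither passed, the adjusted p in limma being 0.865 for each. Of all entries 0% passed an adjusted p of 0.05, and 3.6% had an unadjusted p under 0.05. Without ZT38, and equally without its partner ZT62, the differences were 0.021 and 0.0014 log2 units. Without ZT18 or its partner ZT42 that of miR-193 was 0.021. On slide 1, which holds both cycles at 2 clock times, they were 0.012 and 0.045. Without scaling both turned to -0.0097 and -0.010, and with all-probe scaling to -0.50 each, close to the median of all entries there (-0.50).

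Whether the dark-light difference itself repeated in the second cycle was tested as an interaction. All arrays of cycle 1 were on slide 1, and all light arrays of cycle 2 were on slide 2. A change of the light arrays between cycles therefore cannot be told apart from a change between slides. For miR-365 the dark arrays averaged 7.64 ± 0.005 in cycle 2 and 7.60 ± 0.06 in cycle 1, and the light arrays 7.71 ± 0.01 in cycle 2, against 7.68 ± 0.01 in cycle 1 (SD, n = 3 each). The dark-light difference, for which miR-365 was selected, changed by 0.017 log2 units (95% interval -0.076 to 0.11; adjusted p = 0.944 in limma). This small change was of the other sign without ZT38 (-0.015). For miR-193 the dark arrays averaged 8.77 ± 0.04 in cycle 2 and 8.67 ± 0.07 in cycle 1, and the light arrays 8.72 ± 0.01 in cycle 2, against 8.74 ± 0.03 in cycle 1 (SD, n = 3 each). On the brighter probe the dark mean of miR-193 was thus above the light mean in cycle 2 and below it in cycle 1. On its dimmer probe the dark mean was below the light mean in both cycles. There the dark arrays of cycle 2 read 6.77 (ZT42), 6.73 (ZT46) and 6.90 (ZT62). The light arrays of cycle 2 read 6.92 (ZT50), 6.81 (ZT54) and 6.72 (ZT58). The change of 0.13 log2 units on the brighter probe had an unadjusted p of 0.0307 and an adjusted p of 0.944 in limma, so it did not pass. With the mean of all probes the change was 0.092. Of all entries 0% passed and 2.16% had an unadjusted p under 0.05. Without ZT38 the change was 0.090, with all-probe scaling 0.84 and with normexp -0.026.

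Differences between clock times within the light and within the dark, which leave out the lights contrast, did not pass the test for either member. The largest span of clock-time means within a phase was 0.060 log2 units for miR-365, between 14 and 22 h, and 0.036 for miR-193, between 2 and 10 h. The median of all 139 entries was 0.18. The adjusted p in limma was 0.87 for miR-365 and 1 for miR-193, with 0% of entries past 0.05 and 2.88% at an unadjusted p under 0.05. Single arrays moved the spans, to 0.023 for miR-365 and 0.077 for miR-193 without ZT38, and to 0.11 and 0.13 without ZT62 and also on slide 1 alone. Without ZT18 or ZT50 the span of miR-193 was 0.083 or 0.056. A 12-h rhythm beside the 24-h one had a peak-to-trough difference of 0.028 log2 units for miR-365 and 0.013 for miR-193, against a median of 0.11 over all entries. Leaving out single arrays moved them between 0.017 (without ZT38) and 0.050 (without ZT62) for miR-365, and between 0.0073 (without ZT46) and 0.062 (without ZT38) for miR-193. On slide 1 alone they were 0.069 and 0.071. The adjusted p in limma was 0.942 and 1, with 0% of entries past 0.05 and 5.76% at an unadjusted p under 0.05.

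miR-365 and miR-193 can come from one transcript, so their levels were compared array by array. The scatter of the pair shows a common low at ZT38 and ZT18. Over the 12 arrays Pearson's r was 0.56 (permutation p = 0.0653, two-sided, 1 pair tested, the adjusted p being the same) and Spearman's rho was 0.17 (permutation p = 0.588). Leaving out ZT38 and ZT18, the arrays farthest from the median of miR-365, turned r to -0.48 (permutation p = 0.161, n = 10). Without ZT38 alone r was 0.0047, and without ZT18 alone it was 0.52. The positive r over the 12 arrays thus rests mainly on ZT38. On the 8 arrays of slide 1, which include both, r was 0.88 (exact permutation p = 0.00856) and rho 0.64 (exact permutation p = 0.0962). With the dark and light means taken off, r was 0.75 (permutation p = 0.00885) and rho 0.60 (permutation p = 0.0419), and without ZT38 and ZT34, the farthest there, r was 0.37 (permutation p = 0.294, n = 10). Within the 6 dark arrays r was 0.88 (exact permutation p = 0.0194), and within the 6 light arrays -0.24 (exact permutation p = 0.646). The p-values of these further versions of the correlation were not adjusted for the number of versions. Both values of an array carry its scaling factor, and the part of that factor in r was not tested.

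**Figure D4:**
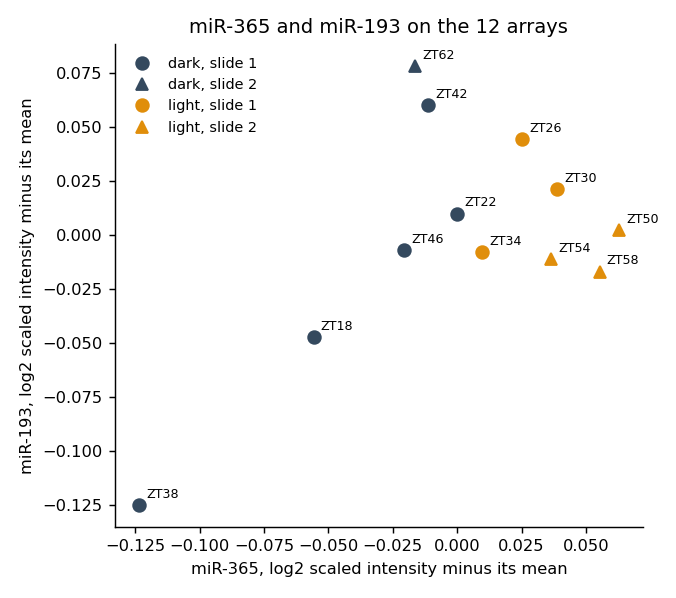
miR-193 against miR-365 on the 12 arrays, each as log2 scaled intensity minus its mean, with dark arrays in dark blue, light arrays in orange, slide 1 as circles and slide 2 as triangles. ZT38 and ZT18 lie at the lower left, and without them r is -0.48 in place of 0.56.

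Other miRNAs with neighbouring genes give a scale for that value, as a description. Of 11 such pairs, 10 had both partners tested and never at the floor, and their r over the 12 arrays lay between 0.0065 and 0.96 with a median of 0.59. The red cell miRNAs miR-451 and miR-144 had r = 0.96 and miR-23a and miR-27a 0.93. The hepatocyte miRNAs miR-192 and miR-194 had 0.48, and miR-15a and miR-16 had 0.0065. The value of miR-365 and miR-193, 0.56, lay within this range.

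**Figure D5:**
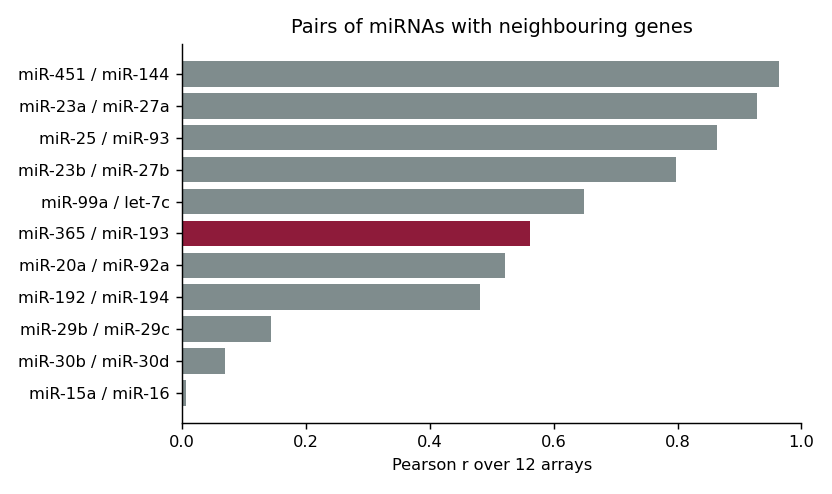
Pearson r over 12 arrays for 10 pairs of miRNAs with neighbouring genes (grey) and for miR-365 with miR-193 (red). Bars start at 0, and the red bar (0.56) stands between miR-20a with miR-92a (0.52) and miR-99a with let-7c (0.65).

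Among the 108 other entries never at the floor, the 5 whose pattern was most like that of miR-365 over the 12 arrays were miR-30d (r = 0.76), the hepatocyte-enriched miR-148a (0.71), miR-720, an entry derived from a transfer RNA (0.64), miR-31 (0.60) and miR-193 (0.56). The median r over the 108 was 0.19. With dark and light means taken off, miR-30d and miR-193 kept r of 0.77 and 0.75, while miR-148a had 0.39, miR-31 0.27 and miR-720 0.20. For miR-193 in turn, miR-365 ranked 4th of the 108.

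miRNAs reported to act in brown or beige fat, the setting the miR-193b and miR-365 cluster is known from, were followed as a list of 20. All were on the array, 13 were tested and 6 were detected on 0 arrays. In each of the 6 comparisons 0 of the 13 passed an adjusted p of 0.05 in limma, as did 0% of all 139 entries; at an unadjusted p the share of all entries was 7.91% for dark against light and 3.6% for the 24-h rhythm. Over all entries 93 of 139 had a lower mean in the dark. Of 7 reported to favour brown fat, 5 had a lower mean in the dark and 2 a higher one. Of 6 reported to oppose it, 3 were lower and 3 higher. The median dark minus light difference of the 13 was -0.0048 log2 units, against -0.02 over all entries, and the median cycle difference was -0.003, against 0.02. The list's largest dark minus light difference was that of miR-34a, a target of the tumour suppressor p53, at 6.32 ± 0.18 in the dark and 6.43 ± 0.13 in the light (SD, n = 6 each; adjusted p = 0.741 in limma). Its largest cycle difference was that of miR-27b, at 8.18 ± 0.04 in cycle 2, against 8.22 ± 0.12 in cycle 1 (SD, n = 6 each; adjusted p = 0.866 in limma).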

How the data were processed

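Each array was read with Agilent Feature Extraction, version 10.7.3.1 per the file headers and 9.5.3.1 per the submitters' processing notes. The deposited intensities are background-subtracted and detrended within an array, not scaled between arrays, per the file headers, and the deposited value table differs from them by 0. Control spots and outlier spots (3.82% to 6.94% of an array) were left out and spots of a probe averaged. Scaling divided an array by the 75th percentile of the 157 probes with more than 50% of spots well above background on every array. Values were then set to a floor of 21.9 intensity units and log2-transformed. An entry is represented by its brightest probe. Tests used limma 3.58.1 in R 4.3.3 with an intensity trend, and were tested on simulated data. Correlations were permuted with numpy 2.4.6 (100000 resamples with 10 or more arrays, otherwise exact). The normexp alternative used the median spot signal, with an offset of 50. The members and lists were chosen with earlier results of these data known. The text names the members, their star form, the 5 entries most like miR-365, pairs of neighbours and the extremes of the brown fat list. Depth has no count here, and the number of arrays limits precision.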

Additional observations from a re-analysis of the deposited data

Results flagged for a closer look

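On the light arrays miR-193b was highest at ZT50, 15.45 scaled intensity units, while the next light array read 6.523. This gap was 0.72 of the range of the 6 light arrays, past the limit for a single outlying value. At ZT50 2 of the 10 spots of that probe were well above background, and the value lies below the floor of 21.9. In all 6 groups of 6 arrays were screened and 1 was picked out, where chance gives about 1 in 20.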

How the results depend on the processing

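The sample titles carry no replicate numbers to block on, and arrays were paired across cycles by clock time only, in the cycle comparison. Of 432 values recomputed under alternatives, 392 were counted as the same in direction, side of the threshold or size. This count includes alternatives that cannot change a member's difference, such as a fit without the intensity trend. It also includes the dark minus light difference of miR-193, -0.0104 with all arrays and 0.0135 without ZT38. So it does r of miR-365 with miR-193, 0.561 with all arrays and 0.0047 without ZT38. The values not counted as the same are given here, and their cause was not tested. With all-probe scaling the dark minus light difference was 0.353 for miR-365 and 0.419 for miR-193, the 24-h difference 0.321 and 0.410, the cycle difference -0.498 and -0.498, and r of the pair 0.996 (permutation p = 1e-05, the smallest possible). Without scaling these were -0.015 and 0.050, 0.056 for the 24-h difference of miR-365, -0.0097 and -0.010, and 0.865, and the interaction of miR-365 was -0.085. With normexp dark minus light was -0.242 and -0.074, the 24-h difference 0.363 and 0.104, the interaction -0.327 and -0.026 and r 0.952, and 1 entry each passed for the 24-h, 12-h and within-phase tests. Quantile normalization gave r = 0.771 and 1 entry past the interaction test. The interaction of miR-365 was -0.008 with the total gene signal and -0.0088 with the mean of all probes, where r was 0.637. On slide 1 alone the 24-h difference of miR-193 was 0.102, r was 0.877 and 3 entries passed the within-phase test. Leaving out each array gave -0.015 to 0.047 for the interaction of miR-365, 0 to 2 entries for dark against light (2 without ZT30), 0 to 7 for the within-phase test (7 without ZT26, 2 without ZT46, 1 each without ZT54 and ZT58) and r of 0.0047 (without ZT38) to 0.690 (without ZT62). r passed an unadjusted permutation p of 0.05 without ZT58 (0.634) and without ZT62. Testing all 650 entries was not run, since most lie at the floor and the intensity trend could not be fitted. The interaction cannot be estimated on slide 1 alone, which has no light array of cycle 2.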
